A study of Arabidopsis thaliana with 3 samples.

Results

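The loci described here lie around the centromeres of the 5 nuclear chromosomes of Arabidopsis thaliana, in the windows chr1:12500000-17500000, chr2:1500000-6000000, chr3:11000000-16000000, chr4:1600000-5500000 and chr5:9500000-14500000 of the TAIR10 build. A locus counted as pericentromeric when its whole interval lay in a window, and the choice used position only, no expression value. This gave 5314 of the 33857 loci in the files. They were compared with the 28273 other loci on chromosomes 1 to 5. Chromosome 1 held 980 of the members, chromosome 2 held 1148, chromosome 3 held 1168, chromosome 4 held 893 and chromosome 5 held 1125.

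Pericentromeres flank the satellite repeats on which the kinetochore forms. In Arabidopsis they are rich in transposable elements and their remnants, are packed as heterochromatin with dense DNA methylation and histone H3 lysine 9 methylation, and hold few active genes among many silent ones. Some genes embedded in them are nevertheless transcribed.

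Strand-specific RNA sequencing was done on leaf, silique (the fruit with its seeds) and inflorescence (the flowering shoot tip), with 1 library per organ and 3 libraries in all. All organs came from wild-type plants of the accession Col-0, 5.5 weeks old and grown in 16 h of light a day. These plants had been shot at 3 weeks of age with gold particles that carried no plasmid, as a mock transformation, and had grown for 18 days since. Every library therefore comes from mock-bombarded plants, and none from untouched ones.

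Values are FPKM, fragments scaled by transcript length and library total, 1 value for each locus and library. With 1 library per organ no difference below has a replicate check, no error could be computed and no test was run; each statement compares these libraries. How many fragments a value rests on is unknown. A value of exactly 0 may be a failed estimate, so such loci are called listed at 0. As an example, RP1, a gene for a cytosolic ribosomal protein at chr1:16266641-16268870, was listed at 0 in leaf and had 474 FPKM in silique and 586 FPKM in inflorescence. Loci with near-identical copies elsewhere, which are common in this part of the genome, can share fragments with them, and their values are uncertain to that extent.

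The organ labels were checked against marker genes outside the windows. RBCS1A, LHCA3 and CP12-2, genes of photosynthesis, were highest in leaf; the seed storage and oil body genes SESA3, CRA1 and OLEO2 were highest in silique; and the floral identity genes AP3 and PI and the pollen gene PPME1 were highest in inflorescence. AP3 had 0.482 FPKM in leaf, 63.3 FPKM in silique and 91.9 FPKM in inflorescence, so this marker alone did not set inflorescence clearly apart from silique. In whole organs, fewer cells of a type and less RNA per cell cannot be told apart.

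The pericentromeric loci were a different mix of features from the rest of the chromosomes. By position in a reference gene table, 4697 members (88.4%) were named. Loci named as pseudogenes were 2919 of the members (54.9%), against 797 of the other loci (2.82%). Protein-coding loci were 1418 members (26.7%), against 19186 others (67.9%). Transcribed pseudogenes made up 288 members (5.42%), and noncoding RNA genes 72 members (1.35%). The reference table has no class for transposable elements, and 3025 of its 3917 pseudogenes on these chromosomes lie wholly in the windows. A further 351 members (6.61%) shared their position with another identifier, against 18.7% of other loci. Members were somewhat shorter, with a median width of 1792 bp against 2146 bp.

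Few pericentromeric loci were detected in any organ. At a detection floor of 1 FPKM, 867 members (16.3%) were detected in leaf, 969 (18.2%) in silique and 1008 (19.0%) in inflorescence. Other loci were detected at 61.9% in leaf, 69.5% in silique and 70.3% in inflorescence, and all loci of the 5 chromosomes together at 54.7%, 61.4% and 62.1%. Members thus lay 45.6 percentage points below the other loci in leaf, and 51.3 points below them in silique and in inflorescence. In all 3 libraries, 3279 members (61.7%) were listed at 0, against 2976 other loci (10.5%).

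Detection differed among the chromosomes. The window of chromosome 1 had the highest shares, 20.3% in leaf, 24.7% in silique and 25.4% in inflorescence. That of chromosome 3 had the lowest, 11.04%, 14.4% and 15.2% in the same organs. Chromosome 2 had 17.6% in leaf, 17.2% in silique and 17.2% in inflorescence, and chromosome 4 had 16.7%, 17.47% and 17.4%. On chromosome 5 the shares were 16.7%, 18.3% and 20.4%. The window of chromosome 2 was the one whose share was highest in leaf, and this rested on the stretch with inserted mitochondrial DNA: its other 1026 members gave 17.3% in leaf, 18.6% in silique and 18.7% in inflorescence.

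Detection was lowest at the centre and increased outward. Within 0.5 Mb of the centromere midpoint, whose position was taken from general knowledge of the assembly, 5.56% of 989 loci were detected in leaf, 4.35% in silique and 4.25% in inflorescence. Between 0.5 and 1.5 Mb from it the shares of 2241 loci were 11.2%, 13.0% and 13.2%. For the 2084 members farther out than 1.5 Mb they were 27.0%, 30.4% and 32.1%. Leaf had the highest share in the inner zone and the lowest share farther out, but the inner zone includes the stretch of chromosome 2 with inserted mitochondrial DNA described below. Without that stretch, 31 of 867 inner loci (3.58%) were detected in leaf, 37 (4.27%) in silique and 36 (4.15%) in inflorescence, so leaf had the lowest share there too. The windows have no sharp boundary in these values. Just inside the window edges, within 0.5 Mb of them, 31.0% of 1282 loci were detected in leaf, 34.6% in silique and 36.8% in inflorescence, and just outside, over the same distance, 40.9%, 47.4% and 47.8% of 1296 loci.

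**Figure D1:**
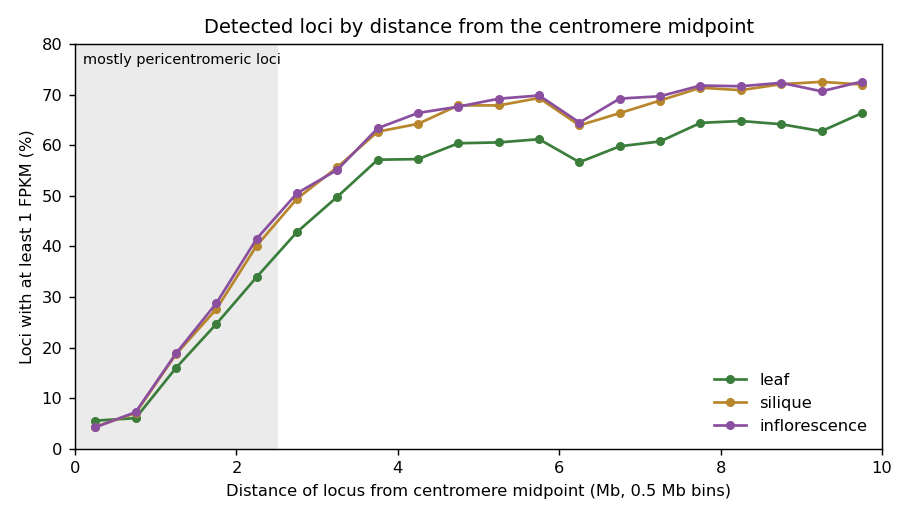
Share of loci with at least 1 FPKM (y axis, percent) by distance from the centromere midpoint (x axis, Mb, bins of 0.5 Mb) for leaf, silique and inflorescence; grey shading marks bins made up mostly of pericentromeric loci. The leaf share is 5.56% in the first bin and 49.8% at 3 to 3.5 Mb, and the 3 organs follow similar curves.

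Protein-coding members were detected less often than other protein-coding loci, with a smaller gap than over all kinds. Among protein-coding loci, 38.3% of members were detected in leaf, 44.99% in silique and 45.6% in inflorescence, against 64.7%, 74.1% and 74.5% of other protein-coding loci. Protein-coding members were also detected less often toward the centre. Within 0.5 Mb of the midpoint 19.0% of 105 such loci were detected in leaf, 17.1% in silique and 17.1% in inflorescence. Of the 855 that lay more than 1.5 Mb away the shares were 42.8%, 50.3% and 51.1%. The inner loci include protein-coding loci of the chromosome 2 stretch with inserted mitochondrial DNA, which were not set apart here. Loci at shared positions were detected at 52.7%, 51.9% and 55.6% among members and at 76.9%, 80.9% and 82.1% among others.

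Few pseudogene members reached the detection floor in any organ, though most rest on values of exactly 0. Of the 2919 pseudogene members, 1.13% were detected in leaf, 0.788% in silique and 1.06% in inflorescence, against 4.64%, 5.27% and 5.65% of the 797 pseudogenes elsewhere. Over the 3 organs 44 of them (1.51%) reached 1 FPKM at least once, against 57 of the others (7.15%), and 83.1% were listed at 0 throughout, against 64.7%. Transcribed pseudogenes were detected at 2.43% of members in leaf, 5.21% in silique and 4.51% in inflorescence, against 10.4%, 11.3% and 11.5% of others.

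The few pseudogene loci with a high level differed from each other in organ. AT4G04692, a transcribed pseudogene at chr4:2375602-2376364, had the highest value of these, with 379 FPKM in leaf, 117 FPKM in silique and 185 FPKM in inflorescence. AT4G04293, a pseudogene at chr4:2076832-2077361, had 130 FPKM in leaf, 0.478 FPKM in silique and 1.098 FPKM in inflorescence. The other pseudogenes in this paragraph were picked after their values were seen. AT2G06950 at chr2:2859140-2863757 ran the other way, with 10.01 FPKM in leaf, 26.0 FPKM in silique and 63.3 FPKM in inflorescence. SADHU3-2 at chr3:14749400-14750294 and SADHU4-1 at chr5:10933823-10934730 belong to the Sadhu family of retroposons, mobile elements copied through RNA. SADHU3-2 had 11.6 FPKM in leaf, 3.92 FPKM in silique and 32.6 FPKM in inflorescence. SADHU4-1 had 3.55 FPKM in leaf, 21.5 FPKM in silique and 13.7 FPKM in inflorescence, so these family members were highest in different organs.

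Noncoding RNA loci were the one kind detected more often among members. They reached 1 FPKM at 30.6% of 72 members in leaf, 38.9% in silique and 38.9% in inflorescence, against 13.0%, 14.6% and 20.1% of 785 others. The widths differed as well: the median was 453 bp among members and 82 bp among others. Among loci of at least 200 bp, 36 of 45 members (80%) and 168 of 227 others (74.0%) were detected in any organ. The highest member was AT1G34418 at chr1:12582122-12582770, with 215 FPKM in leaf, 301 FPKM in silique and 191 FPKM in inflorescence. AT3G41768 at chr3:14197677-14199484, a ribosomal RNA gene picked after its values were seen, had 55.8 FPKM in leaf, 127 FPKM in silique and 60.5 FPKM in inflorescence. Ribosomal RNA genes exist in many near-identical copies, so this value cannot be assigned to a single copy.

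**Figure D2:**
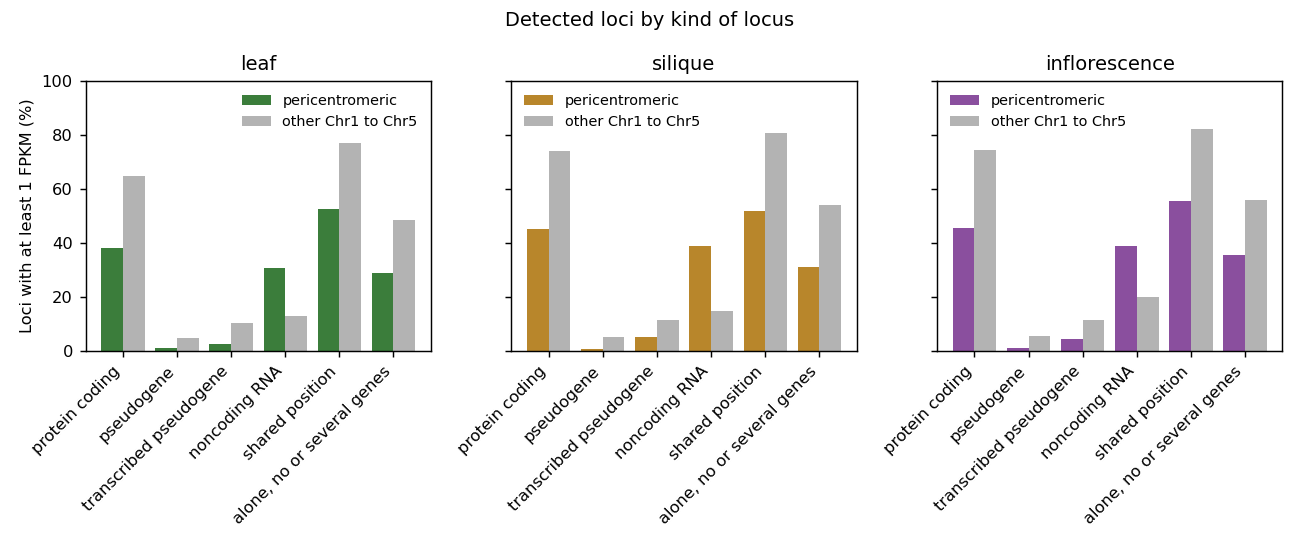
Share of loci with at least 1 FPKM (y axis, percent) for each kind of locus (x axis) in leaf, silique and inflorescence; coloured bars are pericentromeric loci and grey bars the other loci of chromosomes 1 to 5. In every organ the coloured bar is lower for each kind except noncoding RNA, where leaf shows 30.6% against 13.0%.

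Once detected, pericentromeric loci had levels close to those of other loci. The median over detected members was 15.5 FPKM in leaf, 12.7 FPKM in silique and 12.1 FPKM in inflorescence, against 16.8, 14.8 and 13.8 FPKM over other detected loci. At least 100 FPKM was reached by 87 of 867 detected members in leaf, 91 of 969 in silique and 73 of 1008 in inflorescence. Among other detected loci the counts were 1746 of 17511, 1711 of 19646 and 1353 of 19862. Members, which are 15.8% of the loci on chromosomes 1 to 5, held 6.58% of the summed FPKM of those chromosomes in leaf, 4.66% in silique and 5.35% in inflorescence. A single locus, XLOC_011558, accounted for 2.16, 0.554 and 0.946 percentage points of these. Without it the members' shares were 4.42%, 4.11% and 4.40%.

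XLOC_011558 lies at chr2:1933177-1934212, where the annotation has AT2G05310, and had 27503 FPKM in leaf, 5892 FPKM in silique and 8535 FPKM in inflorescence. A second identifier, XLOC_011557, has the same interval and had 569, 211 and 148 FPKM. The files give no strand, so which of the pair is AT2G05310 is not known. The next members by level in leaf were genes of photosystem II, the complex that splits water. PSBX, a small subunit of it at chr2:2587729-2588358, had 3936 FPKM in leaf, 1849 FPKM in silique and 947 FPKM in inflorescence. PSBQ-2, a protein of its oxygen-evolving complex at chr4:2671822-2673243, had 2775 FPKM in leaf, 1055 FPKM in silique and 542 FPKM in inflorescence. Both genes were highest in leaf and lowest in inflorescence. XLOC_031339 at chr5:10647432-10649892, an interval that overlaps AN3, a growth-promoting transcriptional coactivator, was listed at 0 in leaf and silique and had 2384 FPKM in inflorescence. Its partner at the same interval, XLOC_031338, had 2.16, 37.7 and 65.0 FPKM.

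Some further members of at least 100 FPKM with known roles in photosynthesis, photorespiration or nitrogen assimilation were picked by hand after their values were seen, from no fixed list. NPQ4 at chr1:16871696-16873383, whose product drives the harmless dissipation of excess light energy, had 2102 FPKM in leaf, 986 FPKM in silique and 340 FPKM in inflorescence. GAPB at chr1:16127381-16129843, a dehydrogenase of the Calvin cycle, had 1798 FPKM in leaf, 457 FPKM in silique and 233 FPKM in inflorescence. AGT at chr2:5539240-5541358, the serine:glyoxylate aminotransferase of photorespiration, had 1673 FPKM in leaf, 292 FPKM in silique and 186 FPKM in inflorescence. Each of these was highest in leaf and lowest in inflorescence. GS2 at chr5:13830429-13833542, the chloroplast glutamine synthetase, had 1537 FPKM in leaf, 397 FPKM in silique and 361 FPKM in inflorescence. ATPC1 at chr4:2350498-2352018, the gamma subunit of the chloroplast ATP synthase, had 1541 FPKM in leaf, 492 FPKM in silique and 286 FPKM in inflorescence. These genes sit on chromosomes 1, 2, 4 and 5. The antenna genes LHCB2.1 at chr2:1823240-1824425 and LHCB2.2 at chr2:1799234-1800392, near-identical copies of each other, were highest in silique instead. LHCB2.1 had 141 FPKM in leaf, 264 FPKM in silique and 26.5 FPKM in inflorescence, and LHCB2.2 had 114, 194 and 21.3 FPKM.

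Of the 1188 members detected in at least 1 organ, 745 (62.7%) were detected in all 3, against 75.6% of other detected loci. Detection in a single organ was more frequent among members, 277 of them (23.3%) against 2954 other loci (13.58%). Of those members 124 were detected in inflorescence only (10.4% of detected members, against 6.16% of other detected loci). Another 84 were detected in silique only (7.07% against 5.25%) and 69 in leaf only (5.81% against 2.16%). A further 113 were detected in silique and inflorescence but not in leaf (9.51% against 8.11%). The difference was smaller among protein-coding loci, where 140 of 735 detected members (19.0%) were found in a single organ, against 13.4% of others.

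Over all windows together, leaf and inflorescence differed at a larger share of pericentromeric than of other loci, in both directions. A locus counted as different when its ratio of FPKM + 1 was at least 4 and the higher organ had at least 5 FPKM. Of 795 members with at least 5 FPKM in leaf or inflorescence, 82 (10.3%) were higher in leaf, against 7.96% of other loci and 8.06% of all loci. In the other direction 117 (14.7%) were higher in inflorescence, against 11.96% of other loci and 12.1% of all loci. With a minimum of 20 FPKM in place of 5 the balance among members turned, to 63 higher in leaf and 55 higher in inflorescence. Other loci were not counted by direction at this minimum, so the turn cannot be set beside theirs. The share different in either direction, at the minimum of 5 FPKM, was 5.12 percentage points above that of the other loci. The middles of the distributions lay close together: the median log2 ratio of FPKM + 1, over loci of at least 1 FPKM in either organ, was -0.03 for members and -0.05 for others. The balance of directions varied among the chromosomes. Chromosome 4 had 21 members higher in leaf and 11 higher in inflorescence, of 131, while chromosome 3 had 12 and 28 of the same number. Chromosome 1 had 19 and 33 of 195, chromosome 2 had 18 and 26 of 165, and chromosome 5 had 12 and 19 of 173.

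Silique and inflorescence differed at fewer members than leaf and inflorescence did. Of 802 members with at least 5 FPKM in either, 71 (8.85%) were higher in silique, against 7.12% of other loci and 7.2% of all loci. Another 58 (7.23%) were higher in inflorescence, against 5.44% of other loci and 5.52% of all loci. The excess over other loci was 3.53 percentage points in both directions together. Median log2 ratios of FPKM + 1 were -0.01 for members and 0.03 for others.

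Between leaf and silique, 66 of 795 members (8.30%) were higher in leaf, against 5.81% of other loci and 5.93% of all loci. The count higher in silique was 111 (14.0%), against 12.1% both of other loci and of all loci. Together these shares were 4.39 percentage points above those of the other loci. The median log2 ratio of FPKM + 1 was -0.02 for members and -0.08 for others. The 3 comparisons share their libraries, each organ being used in a pair of them. Protein-coding loci alone showed differences of the same direction: 24.95% of protein-coding members and 20.3% of other protein-coding loci differed between leaf and inflorescence, 15.7% and 13.1% between silique and inflorescence, and 21.7% and 18.3% between leaf and silique. The libraries were not fully level. In 12927 loci every organ had 5 FPKM or more, and their median log2 ratios of FPKM + 1 were 0.16 (leaf over inflorescence), 0.08 (silique over inflorescence) and 0.09 (leaf over silique). The 545 members among them had 0.20, 0.05 and 0.14.

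**Figure D3:**
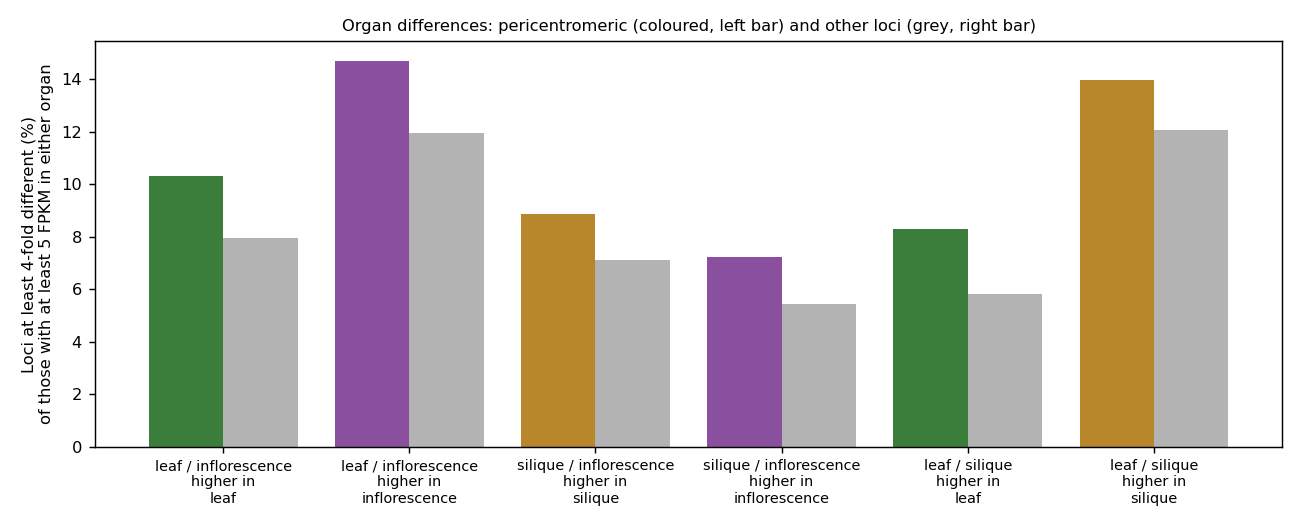
Share of loci at least 4-fold different between a pair of organs (y axis, percent of loci with at least 5 FPKM in either organ) for each pair and direction (x axis); coloured bars are pericentromeric loci and grey bars the other loci of chromosomes 1 to 5. In each pair and direction the coloured bar is the higher, as with 8.30% against 5.81% higher in leaf than silique, and 14.7% against 11.96% higher in inflorescence than leaf.

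Loci were called organ-enriched when an organ with 5 FPKM or more had at least 4 times the FPKM + 1 of each of the other organs. In leaf 45 of 646 members with at least 5 FPKM met this (6.97%), against 4.92% of other loci and 5.01% of all loci. Protein-coding loci made up 29 of the 45, and 7 lay at shared positions. TLL1 at chr1:17123821-17128651, named for likeness to triacylglycerol lipases, had 155 FPKM in leaf, 0.280 FPKM in silique and 0.572 FPKM in inflorescence, a ratio of 99.2 to the higher of the other organs on the FPKM + 1 scale. AT1G35710 at chr1:13220940-13224681, a leucine-rich repeat receptor kinase, had 132 FPKM in leaf, 2.32 FPKM in silique and 2.20 FPKM in inflorescence. MRU1 at chr5:13689817-13690993 had 73.6 FPKM in leaf, 3.74 FPKM in silique and 1.88 FPKM in inflorescence. For each of these the leaf value stood far above both others, which were close together.

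Among the leaf-enriched loci 3 were pseudogenes. AT3G42090, 478 bp at chr3:14274222-14274699, had 122 FPKM in leaf and was listed at 0 in silique and inflorescence. AT4G04293, given above, was the second, and AT5G35777 at chr5:13949228-13953802 had 9.002 FPKM in leaf, 0.0969 FPKM in silique and 0.516 FPKM in inflorescence. AT2G11271 at chr2:4485414-4485539 had 66.7 FPKM in leaf and was listed at 0 in the others; at 126 bp a high FPKM needs few fragments. Nitrogen and glycine-rich protein genes were also on the list, here picked after their values were seen. NIA2 at chr1:14158527-14161938, the major nitrate reductase, had 616 FPKM in leaf, 94.4 FPKM in silique and 24.2 FPKM in inflorescence. GRP-3 at chr2:2026162-2027117, a glycine-rich protein, had 1071 FPKM in leaf, 69.7 FPKM in silique and 83.1 FPKM in inflorescence.

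In silique 55 of 715 members were enriched (7.69%), against 6.29% of other loci and 6.35% of all loci, and 42 of them were protein coding. AT1G47540 at chr1:17455533-17456170 had the largest ratio, 252 on the FPKM + 1 scale, with 3.53 FPKM in leaf, 1141 FPKM in silique and 1.104 FPKM in inflorescence. AT2G05580 at chr2:2055549-2056700 had 1.19 FPKM in leaf, 61.7 FPKM in silique and 0.323 FPKM in inflorescence. AT5G32619 at chr5:12277542-12278091 was listed at 0 in leaf and had 63.3 FPKM in silique and 1.40 FPKM in inflorescence. The silique value stood alone at each of these loci. AT1G47317 at chr1:17347094-17347515 had 35.9 FPKM in silique and was listed at 0 in leaf and inflorescence. Both pseudogenes on the silique list were of the transcribed class and listed at 0 in leaf and inflorescence, AT2G06985 with 6.15 FPKM and AT5G36185 with 5.21 FPKM in silique.

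A short run on chromosome 1 held 4 of these silique-enriched loci. AT1G43666 at chr1:16461072-16461734 had 0.1001 FPKM in leaf, 31.1 FPKM in silique and 0.0644 FPKM in inflorescence. AT1G43667 at chr1:16465056-16465565 was listed at 0 in leaf and had 54.0 FPKM in silique and 0.0928 FPKM in inflorescence. The other members of the run were picked after their values were seen. AT1G43665 at chr1:16452981-16453881 was listed at 0 in leaf and had 51.5 FPKM in silique and 3.98 FPKM in inflorescence. TLP5 at chr1:16439369-16441879, of the Tubby-like family, had 0.503 FPKM in leaf, 113 FPKM in silique and 12.54 FPKM in inflorescence. Close neighbours of this kind were also counted over all enriched loci. Of the positions enriched in silique, 10 of 55 (18.2%) had another one within 20 kb, against 49.0% of those elsewhere, and the shares were 23.8% against 34.6% in leaf and 20.8% against 37.6% in inflorescence. Neighbours were sought only within the same group of loci, and the shares were not adjusted for how densely enriched positions lie. The shares therefore do not compare the clustering of enriched loci.

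Known seed and fruit genes were on the silique list as well, here chosen after their values were seen. TT2 at chr5:13726743-13727860, a MYB factor that directs tannin synthesis in the seed coat, had 0.0961 FPKM in leaf, 20.3 FPKM in silique and 3.19 FPKM in inflorescence. COBL2 at chr3:11728113-11730239, a COBRA-like protein with a role in seed coat mucilage, had 2.78 FPKM in leaf, 80.9 FPKM in silique and 14.47 FPKM in inflorescence. ACP5 at chr5:9571185-9571989, an acyl carrier protein, had 1.01 FPKM in leaf, 97.6 FPKM in silique and 3.71 FPKM in inflorescence. All were lowest in leaf. ALD1 at chr2:5768446-5772259, an aminotransferase of pipecolic acid synthesis known from defence, had 0.228 FPKM in leaf, 28.9 FPKM in silique and 0.101 FPKM in inflorescence. The neighbouring nitrilase genes NIT2 and NIT1, close copies, differed: NIT2 at chr3:15983311-15985535 had 5.40 FPKM in leaf, 228 FPKM in silique and 32.6 FPKM in inflorescence, while NIT1 at chr3:15986864-15989103 had 1001, 738 and 388 FPKM.

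In inflorescence 54 of 710 members were enriched (7.61%), against 5.20% of other loci and 5.31% of all loci. Of these 31 were protein coding and 10 lay at shared positions. MLP168 at chr1:12956159-12957090, of the major latex protein family, had 0.263 FPKM in leaf, 14.9 FPKM in silique and 347 FPKM in inflorescence. AT1G44970 at chr1:17002117-17003688, a peroxidase family member, had 1.67 FPKM in leaf, 0.809 FPKM in silique and 102 FPKM in inflorescence. HA6 at chr2:3169852-3174067, a plasma membrane proton pump, had 0.0530 FPKM in leaf, 0.0661 FPKM in silique and 37.0 FPKM in inflorescence, a ratio of 35.7 on the FPKM + 1 scale. It lies 0.428 Mb from the centromere midpoint, in the zone with the lowest detection. AT1G44542 at chr1:16864970-16866605 had 0.101 FPKM in leaf, 0.659 FPKM in silique and 74.9 FPKM in inflorescence, and AT1G44224 at chr1:16820946-16821808 had 0.0607, 0.322 and 33.1 FPKM.

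Genes known from pollen were among the inflorescence-enriched loci, here picked after their values were seen. PRK2A at chr2:2916538-2918942, a receptor-like kinase of pollen, had 1.597 FPKM in leaf, 5.28 FPKM in silique and 52.8 FPKM in inflorescence. PRK3 at chr3:14954587-14956577, of the same family, had 0.0943 FPKM in leaf, 0.246 FPKM in silique and 5.58 FPKM in inflorescence. ANX2 at chr5:10719197-10722201, a receptor kinase that keeps the growing pollen tube intact, had 0.907 FPKM in leaf, 2.51 FPKM in silique and 20.3 FPKM in inflorescence. All had their lowest value in leaf. CALS5 at chr2:5694398-5706134, a callose synthase needed for the pollen wall, had 0.0614 FPKM in leaf, 0.225 FPKM in silique and 6.04 FPKM in inflorescence. The noncoding loci on the list were MIR396a, a microRNA precursor at chr2:4142323-4142473, and AT5G00495 at chr5:10277226-10277916. They had 16.8 FPKM and 6.88 FPKM in inflorescence and were listed at 0 in the other organs. The pseudogenes were AT3G43830, listed at 0 in leaf, with 0.0354 FPKM in silique and 18.2 FPKM in inflorescence, and AT5G28888, with 0.385 FPKM in leaf, 0.496 FPKM in silique and 5.71 FPKM in inflorescence.

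Small cysteine-rich peptides of the defensin-like type were found on both reproductive lists. The windows held 8 named loci with an LCR or SCRL symbol, a group looked at after values were seen. None of the 8 was detected in leaf, 6 were in silique and 6 in inflorescence. Elsewhere 7 of 96 such loci were detected in leaf, 60 in silique and 76 in inflorescence. LCR33 at chr3:15075816-15078005 was listed at 0 in leaf and silique and had 55.5 FPKM in inflorescence. LCR30 at chr3:15402413-15402799 was listed at 0 in leaf and had 284 FPKM in silique and 71.3 FPKM in inflorescence. LCR29 at chr2:4082827-4083262 had 8.57 FPKM in silique and was listed at 0 in the other organs. Loci of one peptide type thus peaked in different organs.

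Other members were nearly level across organs. Of the 545 members with at least 5 FPKM in every organ, 355 (65.1%) spanned less than 2-fold, against 63.4% of 12382 other loci. UBQ11 at chr4:2588004-2589386, a polyubiquitin gene with repeats shared by its relatives, had 751 FPKM in leaf, 836 FPKM in silique and 699 FPKM in inflorescence. AT2G10940 at chr2:4310412-4312103 had 500 FPKM in leaf, 762 FPKM in silique and 960 FPKM in inflorescence. RD21A at chr1:17282825-17285670, a cysteine protease, had 617 FPKM in leaf, 320 FPKM in silique and 352 FPKM in inflorescence. At least 100 FPKM in every organ was reached by 43 members, and 21 of these spanned less than 2-fold. The same counts were not taken among other loci, so these are not called many or few. RPL21C at chr1:13208736-13210418, a plastid ribosomal protein, had 314 FPKM in leaf, 222 FPKM in silique and 218 FPKM in inflorescence. At shared positions, XLOC_019199 at chr3:11976837-11979621 had 2609 FPKM in leaf, 2966 FPKM in silique and 1624 FPKM in inflorescence, and XLOC_011936 at chr2:5049478-5051613 had 359, 254 and 251 FPKM.

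**Figure D4:**
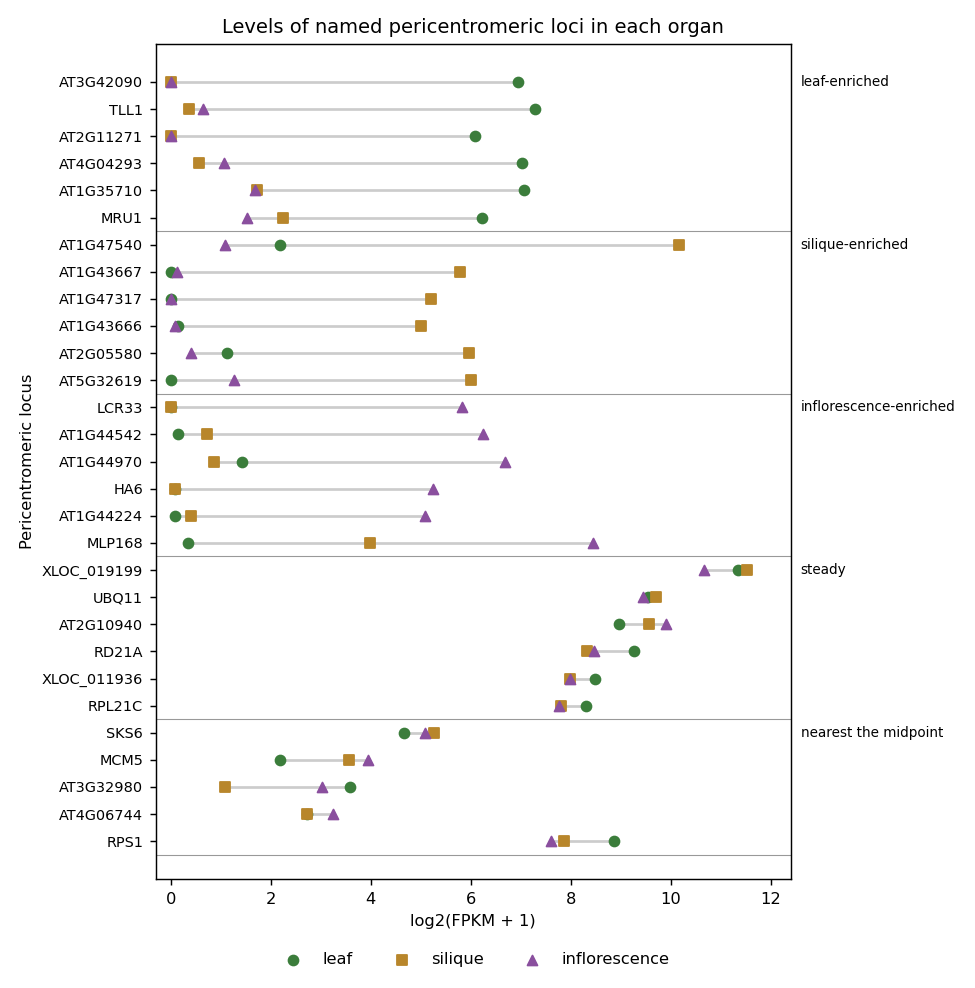
Level of each named locus as log2(FPKM + 1) (x axis) in leaf (circles), silique (squares) and inflorescence (triangles), with the loci down the y axis grouped as organ-enriched, steady or nearest the centromere midpoint; points that coincide cover each other. Enriched loci have 1 organ far to the right, as AT1G47540 with 1141 FPKM in silique, while the 3 points of steady loci such as UBQ11 lie close together.

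The protein-coding locus of at least 5 FPKM nearest the midpoint lay within 0.5 Mb of it on chromosomes 2 to 5 but not on chromosome 1, and these loci differed in level and organ. On chromosome 5 this was RPS1, a plastid ribosomal protein at chr5:11619026-11621298, with 467 FPKM in leaf, 233 FPKM in silique and 194 FPKM in inflorescence, 0.0798 Mb from the midpoint. On chromosome 2 it was MCM5 at chr2:3523163-3527460, a subunit of the helicase that opens DNA for replication, with 3.56 FPKM in leaf, 10.8 FPKM in silique and 14.4 FPKM in inflorescence. On chromosome 3 it was AT3G32980, a peroxidase family member at chr3:13526097-13529997, with 11.1 FPKM in leaf, 1.12 FPKM in silique and 7.11 FPKM in inflorescence. The gene for the plastid ribosomal protein was highest in leaf, the replication gene in inflorescence and the peroxidase gene was low in silique. AT4G06744 at chr4:4070813-4072305 had 5.61 FPKM in leaf, 5.58 FPKM in silique and 8.53 FPKM in inflorescence. On chromosome 1 the nearest, SKS6 at chr1:15603617-15607966, a multicopper oxidase-like protein, lay 0.506 Mb away and had 24.2 FPKM in leaf, 37.3 FPKM in silique and 33.1 FPKM in inflorescence.

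The stretch of chromosome 2 from 3.2 to 3.5 Mb stood apart. In the Columbia genome it holds a large insertion of mitochondrial DNA, whose genes are near-identical to those of the mitochondrion, so fragments cannot be assigned securely to either. Of its 122 loci, 24 were detected in leaf, 6 in silique and 6 in inflorescence. Of the 71 with a value above 0 in any organ, 64 were higher in leaf than in inflorescence and 6 lower, and 61 were higher in leaf than in silique and 7 lower. In silique 37 were higher than in inflorescence and 26 lower. The median over these 71 was 0.536 FPKM in leaf, 0.113 FPKM in silique and 0.0870 FPKM in inflorescence, so most of these values lie below the detection floor. Loci of the mitochondrial genome leaned the same way, with 67 of 75 above 0 higher in leaf than in inflorescence and medians of 1.01, 0.255 and 0.143 FPKM. The remaining members of chromosome 2 did not: 183 of 410 were higher in leaf than in inflorescence and 183 lower. The summed FPKM of the mitochondrial genome was instead highest in silique, at 988, with 904 in leaf and 796 in inflorescence. Its highest locus, XLOC_033706, had 389 FPKM in leaf, 683 FPKM in silique and 507 FPKM in inflorescence.

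The highest loci of the insertion stayed below the median of detected members in each organ. XLOC_008932 at chr2:3331570-3333398, 1 of 2 identifiers at its position, had 12.9 FPKM in leaf, 3.73 FPKM in silique and 3.23 FPKM in inflorescence. XLOC_008933 at chr2:3333505-3338533 had 9.31 FPKM in leaf, 1.71 FPKM in silique and 1.30 FPKM in inflorescence. XLOC_008955 at chr2:3448314-3449179 had 9.79 FPKM in leaf, 9.54 FPKM in silique and 0.905 FPKM in inflorescence. This last locus was as high in silique as in leaf, unlike the other two. The part of mitochondrial transcripts in these values was not tested.

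**Figure D5:**
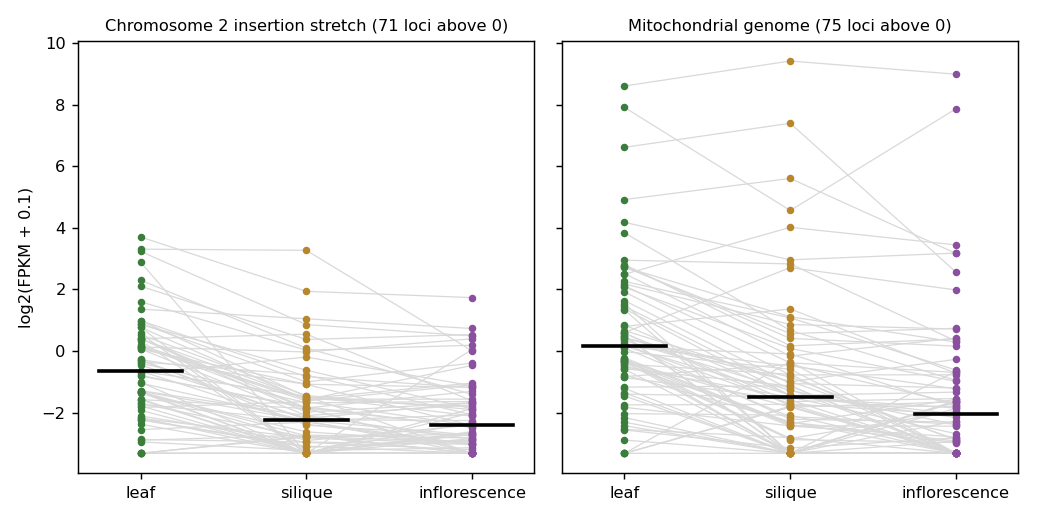
Level of loci above 0 in any organ as log2(FPKM + 0.1) (y axis) in leaf, silique and inflorescence (x axis), for 71 loci of the chromosome 2 insertion and 75 loci of the mitochondrial genome; grey lines join a locus and black bars are medians. Leaf has the highest median on both sides, 0.536 FPKM in the insertion and 1.01 FPKM in the mitochondrial genome.

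A knob of heterochromatin on the short arm of chromosome 4, between 1.6 and 2.3 Mb, lies away from the centromere but in the window. Of its 181 loci, 19.3% were detected in leaf, 19.3% in silique and 20.4% in inflorescence, against 16.0%, 17.0% and 16.6% of the other 712 members of chromosome 4. Those other members include the loci near the midpoint. Members more than 1.5 Mb from a midpoint, as the knob is, were detected at 27.0%, 30.4% and 32.1% over all windows.

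Genes that build or maintain heterochromatin and centromeres, on any chromosome, were looked at as a list. Of 38 entries for DNA methylation and heterochromatin, 28 had a named locus whose reference symbol matched the list, and 1 of these, HTA7, lay in the windows. DCL3 and CLSY1 also lie in the windows, but no locus was named for them, so no value is given. H1.2 had a locus with values, but its reference symbol did not match and it was left out. It was lowest in leaf, by less than 4-fold. HTA7 at chr5:9792561-9793456 encodes a histone H2A.W, the variant found in heterochromatin, and had 55.0 FPKM in leaf, 97.1 FPKM in silique and 126 FPKM in inflorescence. None of the 28 was 4-fold higher in leaf than in inflorescence and 6 were lower, and none was 4-fold higher in leaf than in silique and 3 were lower. The share of all loci lower in leaf, of those with at least 5 FPKM in either organ, was 12.1% in each of these comparisons, and 3 of 28 is close to it. Silique and inflorescence differed 4-fold at none. The median log2 ratio of FPKM + 1 over the list was -0.85 (leaf over inflorescence), -0.06 (silique over inflorescence) and -0.80 (leaf over silique), against -0.05, 0.03 and -0.08 over all loci of at least 1 FPKM in either organ. AGO9, an Argonaute protein of the germline, had the largest span, with 0.543 FPKM in leaf, 36.3 FPKM in silique and 91.5 FPKM in inflorescence. HTA6, another H2A.W, had 20.2, 150 and 205 FPKM, VIM1, a cofactor of the maintenance of CG methylation, had 1.47, 11.2 and 17.4 FPKM, and CMT3, the methyltransferase for CHG sites, had 3.40, 14.3 and 19.1 FPKM in the same organs.

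Of 18 entries for the centromere and kinetochore 6 met the same condition, and MIS12, a kinetochore protein, was the one in the windows. NUF2, SPC24, SPC25 and NASP had loci with values, but their reference symbols did not match and they were left out. Each of them was lowest in leaf, by less than 4-fold, so the shares and medians below leave out genes with smaller differences. MIS12 had 9.47 FPKM in leaf, 20.2 FPKM in silique and 16.6 FPKM in inflorescence. Against inflorescence 3 of the 6 were at least 4-fold lower in leaf and none higher, and against silique 2 were lower and none higher, beside the same 12.1% of all loci; with 6 genes little can be read from these shares. Silique and inflorescence differed 4-fold at none. AUR1, the Aurora kinase of dividing cells, had 2.18 FPKM in leaf, 16.7 FPKM in silique and 34.7 FPKM in inflorescence. HTR12, the histone H3 of the centromere, had 0.778, 7.40 and 13.4 FPKM, BUBR1, of the spindle checkpoint, had 0.529, 3.82 and 6.74 FPKM, and CENP-C, which binds the centromere, had 4.63, 7.95 and 12.7 FPKM. The median log2 ratio of FPKM + 1 over the 6 was -1.81 (leaf over inflorescence), -0.65 (silique over inflorescence) and -1.34 (leaf over silique), against the same -0.05, 0.03 and -0.08 over all loci.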

How the data were processed

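FPKM values were deposited by the authors as 1 table per organ, per the file headers, with a locus identifier, an interval and a value. TopHat and the TAIR10 build are named per the submitters' processing notes; for their versions, the program behind the FPKM and its scaling, the entry is: not given in the sources used here. The files give neither gene names, strand nor counts, so depth is unknown. Positions are those of the files on TAIR10, counted from 1 after 1 was added to the start: 39.1% of starts then equalled an annotated start, against 0.465% as given.

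A locus was named when it was alone at its position and when it and exactly 1 gene of a RefSeq table (assembly TAIR10.1) each covered at least 50% of the other; 25934 loci were named, and the table was used for names and gene types only. The 2 loci that cross a window edge were counted among the others. Detection meant at least 1 FPKM. Ratios are on the FPKM + 1 scale, which understates differences of low loci; a difference needed 4-fold and at least 5 FPKM in the higher organ. FPKM depends on the total of a library, so a few abundant transcripts lower all other values. As a rough guide to depth, the product of FPKM and length in kilobases, over the 100 lowest nonzero values of loci 1500 to 2500 bp wide, averaged 0.0455 in leaf, 0.0444 in silique and 0.0316 in inflorescence.

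The named loci were set by rule: per organ the 6 enriched named members with the largest ratio and the 3 highest members, the 6 highest of those spanning under 2-fold, the nearest protein-coding member of at least 5 FPKM to each midpoint, the 3 highest pseudogene or noncoding members, the 3 highest members of the chromosome 2 insertion, and of each gene list the 4 with the largest span and any in the windows. Other names are said to be picked after values were seen. The members and lists were chosen with earlier results of these data known. Alternatives changed the pseudocount, minimum, fold, detection floor, scaling, window size, locus width and kind of locus. Python 3.11.15, pandas 2.3.3, numpy 2.4.6 and matplotlib 3.10.9 were used. The 4-fold call between leaf and inflorescence and the leaf-enriched call were tested on simulated data with an assumed depth. The other counts were not tested in this way.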

Additional observations from a re-analysis of the deposited data

How the results depend on the processing

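Members were detected less often than other loci under every alternative run, and the share of members at least 4-fold different between organs stayed above that of other loci under every alternative run. With a detection floor of 0.5 FPKM the difference in detected share was -48.0 percentage points in leaf, -53.5 in silique and -53.8 in inflorescence, and with 5 FPKM it was -37.5, -40.9 and -41.1. With each window 0.5 Mb shorter at both ends it was -49.0, -55.0 and -55.5, and with loci of at least 200 bp -47.6, -53.5 and -53.4. Among named protein-coding loci only, a comparison chosen after seeing the data, it was -26.4, -29.1 and -28.9.

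A pseudocount of 5 left 51 members higher in leaf and 54 higher in inflorescence between those organs, 37 higher in silique and 32 higher in inflorescence, and 35 higher in leaf and 49 higher in silique. The enriched counts then were 25 in leaf, 26 in silique and 28 in inflorescence, and the share different between leaf and silique exceeded that of other loci by 0.965 percentage points. With a minimum of 20 FPKM, 63 were higher in leaf than inflorescence and 55 in inflorescence than leaf. This turns the balance of 82 against 117 reported, for members only, as other loci were not counted by direction at this minimum. Between leaf and silique, 44 were higher in leaf and 49 in silique. Between silique and inflorescence, 36 were higher in silique and 32 in inflorescence. At the same minimum 26 were enriched in silique and 30 in inflorescence. A fold of 2 gave 165 higher in leaf than inflorescence, 121 in silique than inflorescence, 102 in inflorescence than silique, 172 in leaf than silique and 177 in silique than leaf, with 132 enriched in leaf, 86 in silique and 86 in inflorescence. The shorter windows held 51 higher in leaf and 72 in inflorescence, 42 in silique and 34 in inflorescence, and 35 in leaf and 62 in silique, for the same pairs, with 27 enriched in leaf, 31 in silique and 32 in inflorescence. Among named protein-coding members 33 were higher in inflorescence than silique and 39 in leaf than silique, 29 were enriched in leaf and 31 in inflorescence, and the median log2 ratio of leaf over silique was -0.10. The excess share of members over other loci at least 4-fold different was 2.81 to 8.27 percentage points between leaf and inflorescence, 2.08 to 4.88 between silique and inflorescence and 0.965 to 5.42 between leaf and silique over the alternatives. These settings count fewer loci or use another limit by construction.

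Median log2 ratios were close to 0 and depended on the setting. Over members of at least 5 FPKM in either organ they were 0.12 (leaf over inflorescence), 0.045 (silique over inflorescence) and 0.025 (leaf over silique), each opposite in sign to the value reported. With the shorter windows all 3 were positive too, at 0.0034, 0.012 and 0.0062, and among named protein-coding loci that of silique over inflorescence was 0.031, so no direction is read from these medians. With library medians made equal they were -0.25 (leaf over inflorescence), -0.13 (silique over inflorescence) and -0.11 (leaf over silique); this scaling moved the median of all loci by -0.21, -0.12 and -0.09. Of 138 alternatives to the 18 counts, shares and medians, 58 moved beyond the limits set for them and are given above, and the other 80 stayed within those limits, which for shares and medians allow changes of over 1.5 times or of sign near 0.

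No paired analysis was possible because each organ has 1 library. Unknown depth and the lack of replicates limit every statement to these libraries: values near the detection floor, loci under 200 bp, loci listed at 0 and loci with near-identical copies are the least secure.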
